A study of Mus musculus with 9 samples.

Results

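Thy1, Cd44, Ephb2, Cdh11 and Cdh2, genes of the mouse fibroblast surface, and Rasa3, a gene of the signalling machinery just beneath it, were followed across a time course of Hedgehog stimulation. They are 6 of the 30407 genes counted in all libraries, matched by symbol. They were picked as surface genes that differed with Dox or responded to SAG more with Dox, so their Dox differences and their Dox-dependent SAG responses are given as a description, with no test. The members were chosen by the measured Dox differences and Dox-dependent SAG responses of Experiment 2. NIH3T3-CG cells, a mouse fibroblast line of embryonic origin, were used throughout. SAG is a chemical agonist of Smoothened, the membrane protein that starts Hedgehog signalling, and Dox is the label's name for a second treatment whose target in these cells the labels do not give.

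The RNA of single cells was counted with unique molecular identifiers (UMIs), each of which stands for 1 captured molecule, in 9 libraries. Experiment 2 held 3 libraries with Dox, at 0, 19 and 30 h of SAG, and 3 without Dox at the same times. Experiment 1 held 3 libraries, at 0, 17 and 30 h of SAG, whose labels do not mention Dox and which were taken as without it. Every cell belongs to the same line, SAG was given in all courses, and the labels name no SAG-free library at the later times, so SAG and time in culture cannot be told apart. Each condition with Dox therefore had 1 library, and each without Dox had 2, with 17 h and 19 h read as 1 time.

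Cells were kept from 5000 UMIs upward if mitochondrial genes gave no more than 10% of them, and they numbered 571 to 6520 per library and carried 19407468 to 105444824 UMIs. Libraries stood apart in 2 ways. The 19 h library without Dox of Experiment 2 had a median of 8025 UMIs per kept cell, against 28335 to 48188 in the other 8 libraries. Cells with under 1% mitochondrial UMIs made up 18.2% and 17.9% of the kept cells at 19 and 30 h with Dox and 19.7% at 30 h without Dox in Experiment 2, against 0.429% to 1.41% in the other 6 libraries. No pair of libraries shared more than 9 kept cell barcodes. The fibroblast label held against its markers: all 9 fibroblast markers were detected in each course, with a summed level of 7752 to 8344 CPM (UMI counts scaled to a common library total) with Dox, 6471 to 8185 CPM without Dox in Experiment 2 and 5858 to 6657 CPM in Experiment 1. Of the markers that define other cell types, Cdh1 and Epcam (epithelial), Ptprc (leukocyte) and Kdr (endothelial) were never above 0.0224, 0.0117, 0.0673 and 0.0294 CPM in any library, and Myod1, Pax7 and Rbfox3 were at 0 in all. Single genes of those lists were higher, with up to 15.0 CPM of Lyz2 (immune), 4.63 CPM of Snap25 and 3.85 CPM of Tubb3 (both neural). Actin and actin-binding genes of the myofibroblast list were plainly present, Acta2 at 70.2 to 315 CPM and Tagln at 51.9 to 196 CPM, and that list summed to 301 to 499 CPM with Dox, 372 to 489 CPM without Dox in Experiment 2 and 126 to 171 CPM in Experiment 1. As a check of the SAG labels, Gli1, the transcription factor whose induction reports Hedgehog signalling, rose by 6.46 ± 0.53 (SE) on the log2 scale at 30 h without Dox (edgeR quasi-likelihood test, adjusted p = 3.71e-09). Gli2, the main activator of Hedgehog targets, was higher with Dox by 1.47 ± 0.13 on the log2 scale (edgeR, adjusted p = 7.35e-12).

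Fibroblasts hold to their neighbours and to the matrix through surface proteins. Cadherins bind the same cadherin on the next cell and are tied to actin by catenins, CD44 binds the matrix sugar hyaluronan, Eph receptors read ephrins on touching cells, and Thy-1 is a lipid-anchored protein that binds integrins. RASA3 is a GTPase-activating protein that turns off RAS and RAP proteins at the inner face of the membrane. It is thus not a surface protein itself, although its gene was grouped with the surface genes.

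All 6 genes are annotated as protein coding (GENCODE vM21, build GRCm38). Thy1 lies on chr9:44043384-44048579 on the plus strand. On minus strands lie Cd44 on chr2:102811141-102901665, Ephb2 on chr4:136647539-136835988, Cdh11 on chr8:102632095-102785642, and Rasa3 on chr8:13566948-13677603. RefSeq promoter sequences (GRCm38.p6, 250 bases before to 50 after the gene's start) were matched for 3 of the 6. Of the genes matched, Cd44 and Ephb2 had 2 of the 3 largest SAG differences with Dox among the 6 genes. Rasa3 differed with Dox at every time. The 3 sequences are shown because no others were matched, Thy1, Cdh11 and Cdh2 having no entry. Each is written 5′ to 3′ on the gene's strand, and capitals mark matches to CCAAT or GGGCGG on either strand. The windows are chr2:102901616-102901915, chr4:136835963-136836262 and chr8:13677538-13677837, in the order printed.
Cd44: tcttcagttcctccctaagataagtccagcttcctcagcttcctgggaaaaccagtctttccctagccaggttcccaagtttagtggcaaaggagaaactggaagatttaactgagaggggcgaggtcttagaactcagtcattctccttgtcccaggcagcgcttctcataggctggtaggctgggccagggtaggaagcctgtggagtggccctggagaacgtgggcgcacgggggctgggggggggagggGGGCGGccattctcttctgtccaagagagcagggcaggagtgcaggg
Ephb2: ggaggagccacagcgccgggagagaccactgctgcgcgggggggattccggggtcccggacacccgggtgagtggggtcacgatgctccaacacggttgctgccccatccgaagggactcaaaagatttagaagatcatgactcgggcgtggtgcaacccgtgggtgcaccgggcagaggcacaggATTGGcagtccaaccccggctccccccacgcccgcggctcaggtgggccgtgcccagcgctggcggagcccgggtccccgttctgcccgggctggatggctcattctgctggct
Rasa3: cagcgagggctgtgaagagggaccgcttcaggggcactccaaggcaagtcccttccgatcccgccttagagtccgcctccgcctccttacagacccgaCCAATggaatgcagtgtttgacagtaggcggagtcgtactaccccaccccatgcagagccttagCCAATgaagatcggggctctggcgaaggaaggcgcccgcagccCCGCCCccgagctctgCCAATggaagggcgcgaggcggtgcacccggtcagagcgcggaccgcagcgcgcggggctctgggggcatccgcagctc
The Rasa3 window held 3 CCAAT matches, 152, 88 and 29 bases before the start, and 1 GGGCGG match 45 bases before it. The Ephb2 window held 1 CCAAT match 64 bases before the start, and the Cd44 window 1 GGGCGG match 3 bases after it. CCAAT was found in 37.4% and GGGCGG in 35.7% of all 32851 promoter windows of the same length. No match was found in these 3 windows to the GLI-binding letters GACCACCCA (0.253% of all windows), nor to TATAAA (13.6%), CACGTG (7.15%) or TGAGTCA (5.20%), each searched on both strands. No searched motif overlaps another in these windows.

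Thy1, the gene of the lipid-anchored glycoprotein Thy-1, had the widest range of levels with SAG in the course with Dox. Its level with Dox was 14.1, 81.4 and 134 CPM at 0, 19 and 30 h. The Experiment 2 libraries without Dox had 23.6, 46.0 and 76.8 CPM at 0, 19 and 30 h, and those of Experiment 1 had 32.2, 44.4 and 38.0 CPM at 0, 17 and 30 h. All CPM values are scaled with TMM factors, which align libraries on most genes. Thy1 was thus lowest of all libraries at 0 h with Dox and highest at 30 h with Dox. The Dox difference was -0.74 in log2 CPM at 0 h, 0.82 at 19 h and 0.80 at 30 h, so the libraries with and without Dox changed places between 0 and 19 h.

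Without Dox, Thy1 was higher in both experiments after SAG. At 30 h the fit over all libraries gave a log2 fold change of 0.996 ± 0.284, with an adjusted p of 0.118 by edgeR. At 17 to 19 h it gave 0.68 ± 0.28 (edgeR, adjusted p = 1). The difference between 0 and 30 h was 1.70 in log2 CPM in Experiment 2 and 0.24 in Experiment 1, so it was larger in Experiment 2. With the 0 h library of Experiment 1 left out, which leaves 1 library at 0 h without Dox, the change was 1.48 at 30 h and 1.22 at 17 to 19 h. With the 30 h library of Experiment 1 left out, the 30 h change was 1.57. Over all alternative settings the 30 h change ranged from 0.37 to 1.57, and the change at 17 to 19 h from 0.24 to 1.22. The Experiment 2 libraries without Dox also entered the choice of these genes, which leaves Experiment 1, with 1 library per time, as the values the choice did not use. With Dox the difference between 30 and 0 h was 3.25 in log2 CPM.

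Cd44, the gene of the hyaluronan receptor, followed the same order with Dox. Its level with Dox was 16.1, 69.7 and 108 CPM at 0, 19 and 30 h. Without Dox it was 17.9, 20.5 and 37.4 CPM at 0, 19 and 30 h in Experiment 2, and 32.5, 39.1 and 27.0 CPM at 0, 17 and 30 h in Experiment 1. The 2 libraries with both Dox and SAG lay above the other 7 libraries, and their Dox differences were 1.77 at 19 h and 1.53 at 30 h in log2 CPM. At 0 h the Dox difference was -0.15 in log2 CPM, with Poisson 95% intervals that overlap, 14.8 to 17.4 CPM with Dox and 16.8 to 19.0 CPM without. This sign depends on the scaling, since CPM without a scaling factor were 14.5 with Dox and 12.4 without.

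The SAG response of Cd44 without Dox had opposite signs in the experiments. It was 1.07 in log2 CPM in Experiment 2 and -0.27 in Experiment 1 between 0 and 30 h. The fit gave 0.46 ± 0.28 at 30 h (edgeR, adjusted p = 0.586) and 0.23 ± 0.27 at 17 to 19 h (edgeR, adjusted p = 1). Leaving out the Experiment 2 library at 30 h turned the 30 h value to -0.27, and leaving out the Experiment 1 library at 30 h raised it to 1.08. With Dox the difference between 30 and 0 h was 2.75.

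Ephb2, a receptor tyrosine kinase for ephrin-B ligands, was scarce before SAG. Its level with Dox was 2.66, 11.1 and 13.9 CPM at 0, 19 and 30 h. In the absence of Dox it was 1.58, 2.60 and 4.51 CPM at 0, 19 and 30 h in Experiment 2, and 2.47, 1.95 and 3.09 CPM at 0, 17 and 30 h in Experiment 1. Again the 2 libraries with Dox and SAG lay above the other 7 libraries, and the 0 h library with Dox lay among the libraries without it. The smallest level, 1.58 CPM, rests on 93 UMIs and the largest on 1243, and the fewest UMIs were 42, at 17 h in Experiment 1. Dox differences in log2 CPM were 0.74, 2.08 and 1.62 at 0, 19 and 30 h.

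Without Dox the Ephb2 fit gave a log2 fold change of 0.94 ± 0.30 at 30 h of SAG (edgeR, adjusted p = 0.189) and 0.20 ± 0.30 at 17 to 19 h (edgeR, adjusted p = 1). The 30 h difference was 1.49 in Experiment 2 and 0.32 in Experiment 1, in log2 CPM. With the 0 h library of Experiment 1 left out, the 30 h change was 1.49, and over all alternative settings it ranged from 0.36 to 1.49. Without any limit on mitochondrial UMIs it was 1.08 (edgeR, adjusted p = 0.00664), and that of Thy1 was 1.06 (edgeR, adjusted p = 0.00682). In that setting 261 of 15123 genes were called, against 64 of 14354 in the main fit. The Experiment 2 libraries without Dox had entered the choice of both genes, so these p-values are not counted as calls. With Dox the Ephb2 difference between 30 and 0 h was 2.37.

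**Figure D1:**
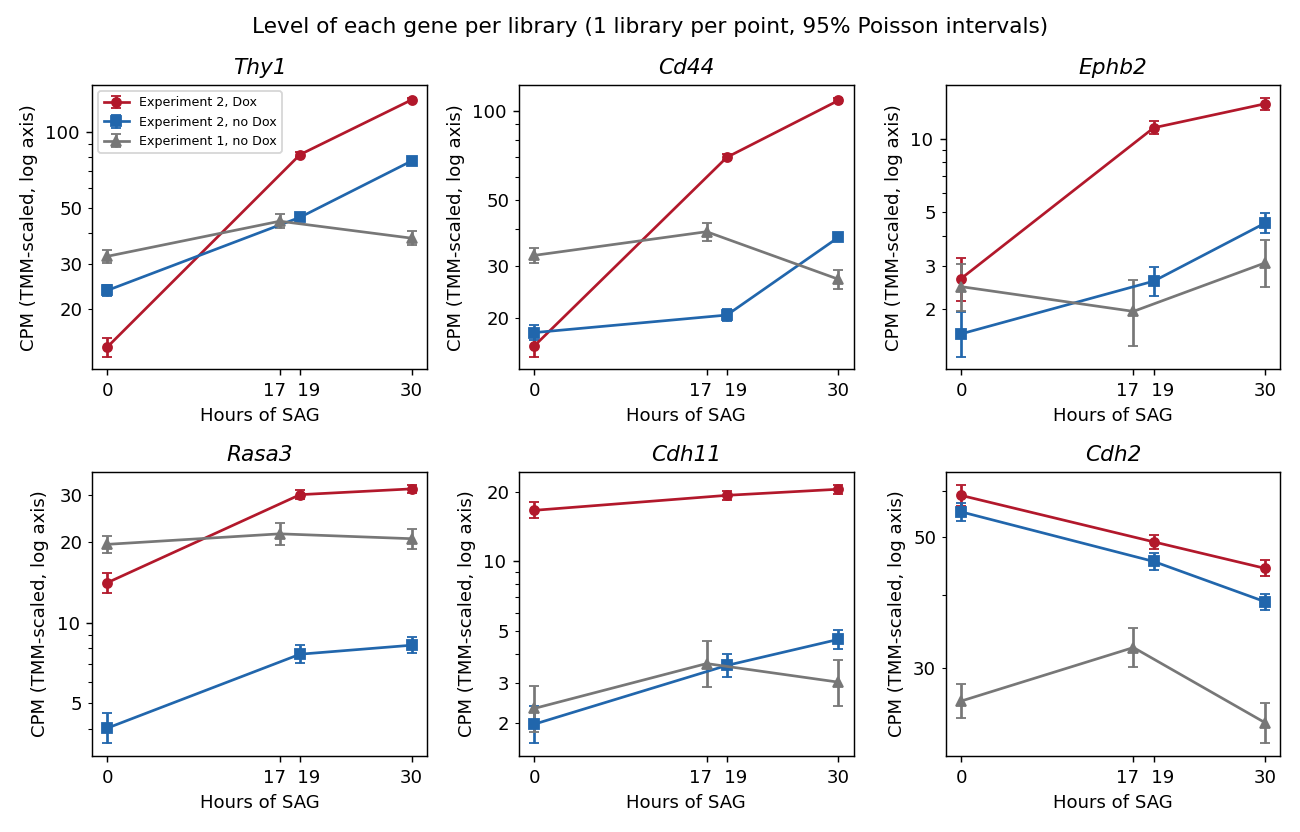
Level of each gene in each library, in TMM-scaled CPM on a log axis, against hours of SAG. Red circles are Experiment 2 with Dox, blue squares Experiment 2 without Dox and grey triangles Experiment 1 without Dox, each point being 1 library with its 95% Poisson interval. Thy1, Cd44 and Ephb2 are highest with both SAG and Dox (Thy1 at 134 CPM), Cdh11 is already at 16.6 CPM with Dox at 0 h, and Cdh2 is lower at 30 h than at 0 h in both courses of Experiment 2.

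Cdh11, the gene of cadherin-11, a classical cadherin of mesenchymal cells, differed with Dox from the start. Its level with Dox was 16.6, 19.3 and 20.5 CPM at 0, 19 and 30 h. Without Dox it was 1.99, 3.56 and 4.61 CPM at 0, 19 and 30 h in Experiment 2, and 2.32, 3.63 and 3.02 CPM at 0, 17 and 30 h in Experiment 1. The 3 libraries with Dox lay above all 6 libraries without it, and these fell between 1.99 and 4.61 CPM in both experiments. The Dox difference in log2 CPM was 3.04 at 0 h, 2.43 at 19 h and 2.14 at 30 h. At 0 h only 0.0975% of the 14354 genes tested had a larger Dox difference.

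The SAG differences of Cdh11 were small beside its Dox differences. Between 0 and 30 h the difference was 0.30 with Dox, against 1.20 without Dox in Experiment 2 and 0.37 in Experiment 1, in log2 CPM. Without Dox the fit gave 0.84 ± 0.27 at 30 h (edgeR, adjusted p = 0.203) and 0.74 ± 0.28 at 17 to 19 h (edgeR, adjusted p = 1). With the 0 h library of Experiment 1 left out, the 30 h change was 1.09, and over all alternative settings it ranged from 0.44 to 1.17.

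Cdh2, the gene of N-cadherin on chromosome 18, showed no Dox difference of this kind. Its level with Dox was 58.9, 49.1 and 44.3 CPM at 0, 19 and 30 h. The courses without Dox gave 55.2, 45.5 and 38.9 CPM at 0, 19 and 30 h in Experiment 2, and 26.4, 32.6 and 24.3 CPM at 0, 17 and 30 h in Experiment 1. The Dox differences were 0.09, 0.11 and 0.19 in log2 CPM at 0, 19 and 30 h, and 41.8%, 44.4% and 29.1% of the genes tested had larger ones. Its place in the set depends on the scaling: without a scaling factor its level was 52.9, 58.3 and 52.2 CPM with Dox and 38.3, 37.0 and 38.4 CPM without Dox in Experiment 2. Cdh2 differed more between experiments, being 1.06, 0.48 and 0.68 higher in Experiment 2 than in Experiment 1 at the 3 times, in log2 CPM. The SAG change without Dox was -0.32 ± 0.24 at 30 h (edgeR, adjusted p = 0.665) and 0.00 ± 0.24 at 17 to 19 h (edgeR, adjusted p = 1).

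Rasa3, the gene of the GTPase-activating protein, was higher with Dox at each time of Experiment 2. Its level with Dox was 14.1, 30.2 and 31.7 CPM at 0, 19 and 30 h. Without Dox it was 4.02, 7.61 and 8.23 CPM at 0, 19 and 30 h in Experiment 2, and 19.7, 21.5 and 20.6 CPM at 0, 17 and 30 h in Experiment 1. The Dox difference was nearly the same at all times, 1.80, 1.98 and 1.94 in log2 CPM. The Experiment 1 libraries without Dox nevertheless lay above the 0 h library with Dox. Between the experiments without Dox, Rasa3 was lower in Experiment 2 by differences of -2.28 at 0 h, -1.50 at 17 to 19 h and -1.32 at 30 h in log2 CPM. Its SAG change without Dox was 0.53 ± 0.25 at 30 h (edgeR, adjusted p = 0.462) and 0.49 ± 0.25 at 17 to 19 h (edgeR, adjusted p = 1). Between 0 and 30 h it was 1.17 with Dox, against 1.03 without Dox in Experiment 2 and 0.07 in Experiment 1. With the 0 h library of Experiment 1 left out, the 30 h change was 0.99, and over all alternative settings it ranged from 0.11 to 0.99.

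**Figure D2:**
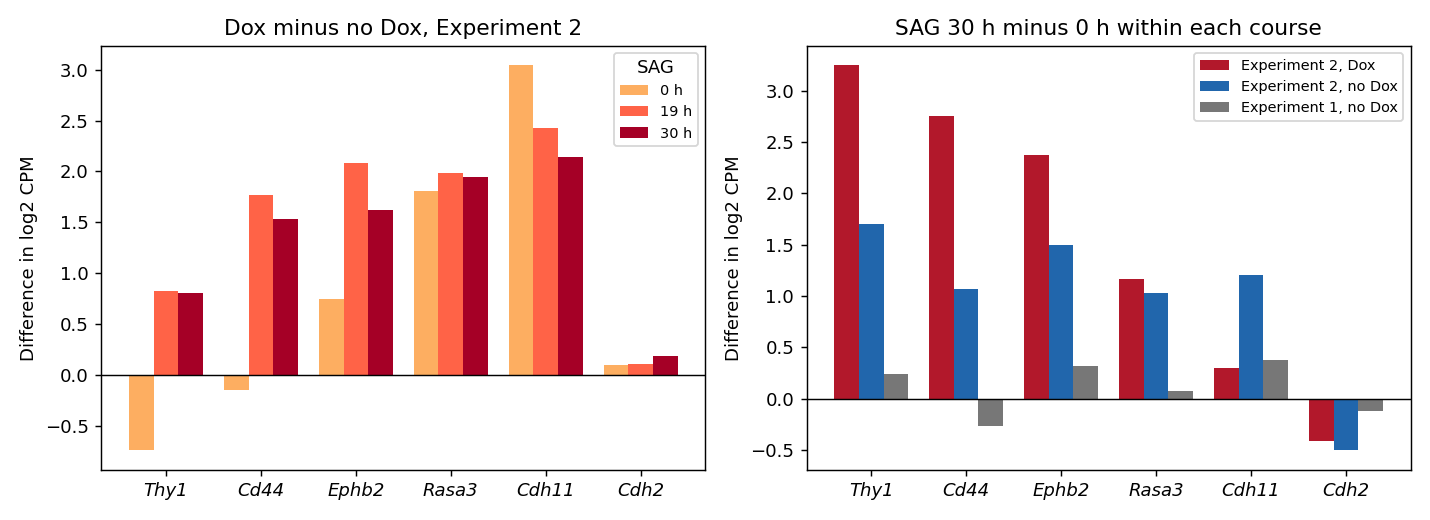
Differences between single libraries in log2 CPM, on linear axes. The left panel gives Dox minus no Dox at 0, 19 and 30 h of SAG in Experiment 2, and the right panel gives 30 h minus 0 h of SAG in Experiment 2 with Dox, Experiment 2 without Dox and Experiment 1. Cdh11 and Rasa3 differ with Dox at all 3 times, Thy1 is lower with Dox at 0 h (-0.74) and higher later, and the Experiment 1 bars are the shortest for every gene except Cdh11.

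Over all genes, edgeR called 64 of 14354 at 30 h of SAG without Dox (0.446%), 20 higher (0.139%) and 44 lower (0.307%). At 17 to 19 h it called 16 (0.111%), 8 higher (0.0557%) and 8 lower (0.0557%). None of the 6 genes was called in either comparison. Their unadjusted p-values are not counted, because the Experiment 2 libraries without Dox entered the choice of the genes. Over all genes 1483 at 30 h and 383 at 17 to 19 h had an unadjusted p under 0.05 by edgeR. DESeq2 called 12 genes at 30 h and 7 at 17 to 19 h.

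The SAG response was then set against itself with and without Dox. The fitted excess with Dox at 30 h was 2.29 ± 0.48 in log2 for Cd44, 2.25 ± 0.49 for Thy1, 1.45 ± 0.49 for Ephb2 and 0.64 ± 0.42 for Rasa3, against -0.54 ± 0.44 for Cdh11 and -0.09 ± 0.41 for Cdh2. At 17 to 19 h it was 1.88 for Cd44, 1.85 for Ephb2, 1.85 for Thy1 and 0.60 for Rasa3, against -0.52 for Cdh11 and -0.26 for Cdh2. Thy1, Cd44 and Ephb2 thus had the largest fitted excesses of SAG response with Dox, and Cdh11 and Rasa3 the largest Dox differences at 0 h. Across all genes edgeR called 0 (0%) at either time, with 206 and 200 at an unadjusted p under 0.05, and DESeq2 also called 0. The fit takes the response without Dox over both experiments; within Experiment 2 alone the 30 h response was 3.25 with Dox and 1.70 without for Thy1, and 2.75 and 1.07 for Cd44. It was 2.37 with Dox and 1.49 without for Ephb2, and 1.17 and 1.03 for Rasa3. Over the alternative settings the 30 h excess reached as low as 0.90 for Ephb2 and 0.18 for Rasa3.

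Averaged over the 3 times, the Dox fit of Experiment 2 gave 2.50 ± 0.14 for Cdh11, 1.92 ± 0.12 for Rasa3, 1.60 ± 0.15 for Ephb2, 1.10 ± 0.18 for Cd44, 0.33 ± 0.17 for Thy1 and 0.13 ± 0.12 for Cdh2. The average hides the change of sign of Thy1. The choice of these genes used this contrast, so their own calls are not counted. Over all 13299 genes tested edgeR called 38.8% (5164 genes, 2578 or 19.4% higher and 2586 or 19.4% lower). Without a scaling factor the split was 6851 higher and 475 lower, and the median of all genes stood at 0.41 in log2 rather than 0.02. In that setting Cdh11 stood at 2.91, Rasa3 at 2.31, Ephb2 at 1.95, Cd44 at 1.48, Thy1 at 0.72 and Cdh2 at 0.52. All lay above the median of 0.41, Thy1 and Cdh2 by the least. Because the genes were chosen on this contrast, their place above the median is a description only.

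Other surface genes were read from lists written around each member, in the same Dox comparison. Each list is set against the 38.8% of all genes that were called. Counts without a scaling factor are to be read against that setting, in which 6851 of all 13299 genes were higher and 475 lower. Eph receptors and ephrins shared the direction of Ephb2 most often: of 14 genes tested 9 were higher with Dox, 1 lower and 4 not called. Their median log2 change was 0.49, against 0.02 over all genes, and 9 genes were called higher on leaving out any 1 of the 6 libraries. Without a scaling factor 9 were higher and 0 lower, in a setting where most calls over all genes were higher. Their median was then 0.89, against 0.41 over all genes. Efna5, a lipid-anchored ephrin, was higher by 1.55 ± 0.13 (edgeR, adjusted p = 8.51e-13). Its level was 18.8, 37.6 and 36.8 CPM with Dox at 0, 19 and 30 h, against 5.55, 10.4 and 17.5 CPM without. The receptors Epha7 (1.13 ± 0.13), Ephb6 (1.08 ± 0.16) and Ephb3 (0.83 ± 0.12) were also higher.

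Cadherins and catenins gave 3 genes higher, 1 lower and 3 not called of 7 tested, with a median of 0.22 (4 higher and 1 lower without a scaling factor). The higher genes were catenins, Ctnnd1 (0.44 ± 0.11), Ctnnb1 (0.41 ± 0.12) and Jup (0.31 ± 0.11), whose proteins bind cadherin tails. The only other cadherin called was Cdh18, lower by a log2 change of -1.20 ± 0.25 at levels of at most 1.15 CPM. No cadherin outside the chosen genes was called higher, but of the listed cadherins only Cdh18, Cdh19 and Cdh24 had enough counts to be tested. Without 1 or other library the number of higher genes was between 1 and 3.

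Genes of hyaluronan and of CD44's partners gave 5 higher, 2 lower and 9 not called of 16 tested, or 9 higher and 2 lower without a scaling factor. The share called, 43.8%, was near that of all genes. Cemip and Cemip2, whose proteins degrade hyaluronan, were higher with Dox by 1.49 ± 0.14 and 1.06 ± 0.13 (edgeR, adjusted p = 1.64e-11 and 1.94e-08). Mmp14, a membrane-anchored protease, was higher by 0.92 ± 0.14, and Tnfaip6, whose protein binds hyaluronan, was lower with a log2 change of -1.24 ± 0.17. Cemip also fell with SAG without Dox, by a log2 change of -1.16 ± 0.25 at 30 h (edgeR, adjusted p = 0.0267). It was the only gene of these 6 lists called in a SAG comparison without Dox. Its level was 20.1, 6.90 and 4.64 CPM with Dox at 0, 19 and 30 h, 5.21, 2.68 and 2.11 CPM without Dox in Experiment 2, and 16.5, 6.46 and 8.12 CPM in Experiment 1. Its levels ran opposite to those of Cd44 in the course with Dox.

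Integrin subunits, the matrix receptors that Thy-1 binds among others, gave 6 higher, 2 lower and 11 not called of 19 tested, with a median of 0.22. The share called, 42.1%, was near that of all genes, and without a scaling factor 10 genes were higher and 1 lower. Itga8 was higher by 3.13 ± 0.30 (edgeR, adjusted p = 6.04e-11), but at 4.33, 0.868 and 0.359 CPM with Dox at 0, 19 and 30 h, against 0.272, 0.176 and 0.0577 CPM without. Itgb4 (1.29 ± 0.14) and Itgb5 (0.85 ± 0.13) were higher and Itga6 (-0.55 ± 0.12) lower. Without a scaling factor Itga6 missed the threshold (-0.16, edgeR adjusted p = 0.401).

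Other mesenchymal surface genes gave 10 higher, 4 lower and 9 not called of 23 tested, with a median of 0.30. Without a scaling factor 17 were higher and 2 lower, with a median of 0.69 where that of all genes was 0.41. The genes Ly6c1 and Ly6a, which encode lipid-anchored surface proteins of the same broad kind as Thy-1, were higher with Dox by 1.20 ± 0.12 and 1.13 ± 0.13. The related gene Ly6e of the same list went the other way, with a log2 change of -0.54 ± 0.13. Without a scaling factor Ly6e missed the threshold (-0.15, edgeR adjusted p = 0.322). Alcam (-0.87 ± 0.14) and Cd63 (-0.86 ± 0.15) of this list were lower by more. They stayed called lower without a scaling factor (-0.48 and -0.46, edgeR adjusted p = 0.0248 and 0.000502). Pdgfrb, a receptor for platelet-derived growth factor, was higher by 0.99 ± 0.11, and the proteoglycan gene Cspg4 by 0.78 ± 0.12. Ly6a reached 155, 281 and 306 CPM with Dox at 0, 19 and 30 h, against 65.2, 139 and 139 CPM without.

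RAS and RAP proteins and their GTPase-activating proteins, the list around Rasa3, gave 3 higher, 7 lower and 16 not called of 26 tested. Its share called, 38.5%, was close to the 38.8% of all genes, and its median was -0.05. The GTPase-activating genes Sipa1l1 (1.38 ± 0.12), Dab2ip (0.82 ± 0.11) and Sipa1l2 (0.69 ± 0.15) were higher. Other GTPase-activating genes, Rap1gap (-0.73 ± 0.16) and Rap1gap2 (-0.95 ± 0.26), were lower, as were the GTPase genes Rras2 (-0.68 ± 0.11) and Rras (-0.66 ± 0.13). The direction of the list depends on the scaling: without a scaling factor 11 genes of the list were higher and 0 lower.

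**Figure D3:**
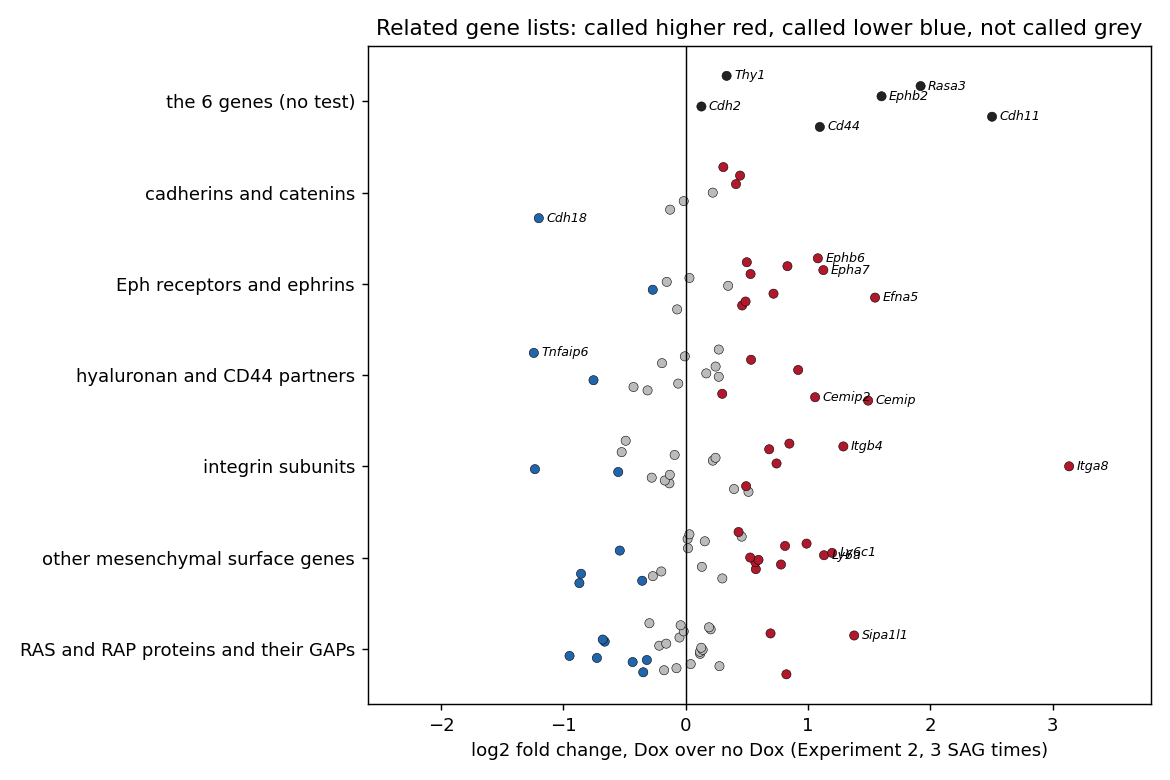
Log2 fold change with Dox over no Dox in Experiment 2 for the 6 genes (black, no test) and for each gene tested of 6 related lists. Red points were called higher and blue points lower at an adjusted p under 0.05 by edgeR, and grey points were not called. Cdh11 lies furthest right of the 6 genes at 2.50, 9 Eph receptors and ephrins are red, and the RAS list lies around 0.

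Mitosis genes moved with Dox beside these lists. Their summed level was 195 to 210 CPM with Dox, 245 to 330 CPM without Dox in Experiment 2 and 424 to 593 CPM in Experiment 1. Of 15 genes 12 were lower with Dox and 0 higher (median log2 change -0.58, edgeR), which became 3 lower without a scaling factor. Fibroblast markers gave 5 higher and 0 lower of 9. The part of cycling cells in the Dox differences was not tested.

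The share of single cells with a UMI of each gene was compared after thinning to 10000 UMIs per cell, with exact binomial 95% intervals that cover counting error only. Shallower cells were left out. At 19 h without Dox in Experiment 2 these were 3923 of 6520 kept cells, so its shares rest on the 2597 deepest cells. Thy1 was found in 10.5%, 52.1% and 71.9% of cells with Dox at 0, 19 and 30 h. Without Dox it was found in 14.4%, 29.9% and 50.6% of cells in Experiment 2 and in 25.5%, 37.8% and 32.9% in Experiment 1. Cd44 was found in 12.5%, 50.7% and 66.6% of cells with Dox, against 10.2%, 13.8% and 28.6% without Dox in Experiment 2 and 24.3%, 31.3% and 23.1% in Experiment 1. At 5000 UMIs per cell the shares at 30 h with Dox were 46.5% for Thy1 and 44.0% for Cd44, and before thinning 93.9% and 93.2%, so the share depends on the depth chosen.

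Cdh11 was found in a minority of cells by this measure. With Dox it was found in 10.9%, 15.2% and 17.2% of cells at 0, 19 and 30 h, against 1.24%, 2.81% and 4.49% without Dox in Experiment 2 and 2.62%, 3.87% and 2.68% in Experiment 1. Before thinning the shares with Dox were 23.6%, 31.7% and 38.6%. Its counts were also uneven between cells: the variance beyond counting noise, relative to the squared mean, was 3.38, 2.94 and 1.86 with Dox at 0, 19 and 30 h. Without Dox, where its counts were sparser, it was 3.62, 2.52 and 5.33 in Experiment 2. In Experiment 1 it was 1.98, 6.00 and -0.94 at 0, 17 and 30 h. The unevenness was thus not particular to Dox. The same measure was 0.42 to 0.57 for Thy1, 0.32 to 0.46 for Cd44 and 0.15 to 0.17 for Cdh2 in the 3 libraries with Dox. Rasa3 was found in 11.6%, 30.1% and 28.8% of cells with Dox, and Ephb2 in 1.66%, 12.4% and 15.0%. Cdh2 was found in 39.7%, 41.4% and 39.0% of cells with Dox and in 29.2%, 27.9% and 29.8% without Dox in Experiment 2, a difference that follows the unscaled CPM. All cells were of 1 line, so no cell type that lacks these genes was there to give a background share.

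**Figure D4:**
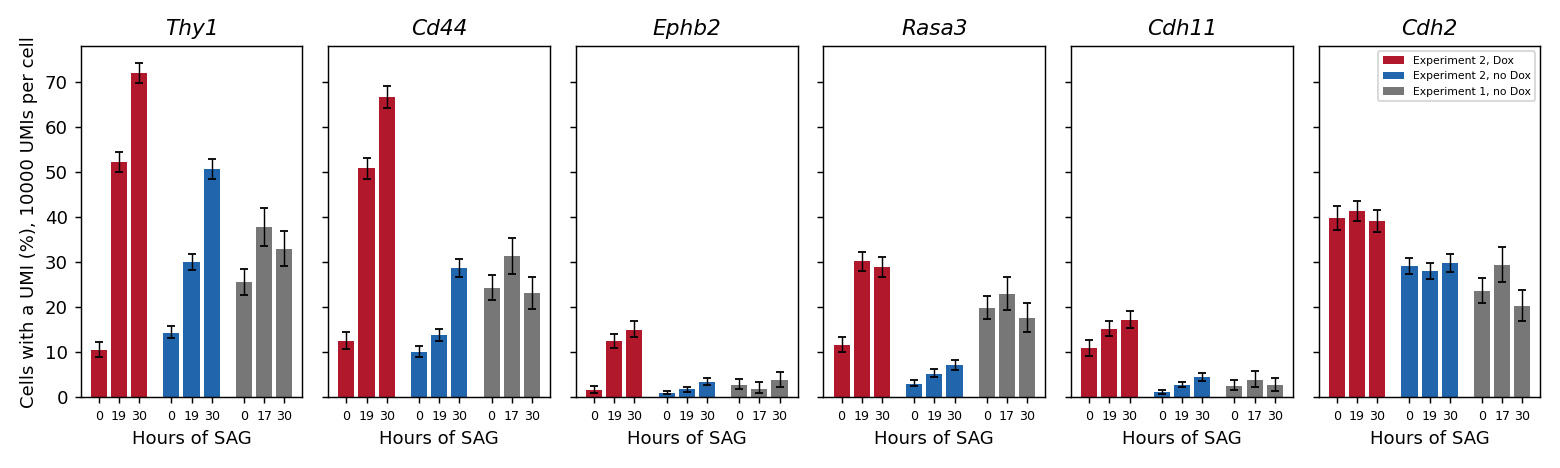
Share of cells with at least 1 UMI of each gene, in percent, after thinning to 10000 UMIs per cell. Bars are single libraries by hours of SAG with exact binomial 95% intervals, red for Experiment 2 with Dox, blue for Experiment 2 without Dox and grey for Experiment 1. Thy1 and Cd44 reach 71.9% and 66.6% with Dox at 30 h, while Cdh11 reaches 17.2%.

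Within libraries the correlations between the 6 genes from cell to cell were low, in sparse counts that pull correlations toward 0. The highest of any pair of them in any library was 0.207, for Cdh11 and Rasa3 at 30 h in Experiment 1. The median Pearson correlation over 9 libraries was highest for Thy1 and Cd44, at 0.060, and lay above 0 in 9 of 9 libraries. Across libraries, in contrast, the log2 CPM of Thy1 and Cd44 had r = 0.89, that of Cd44 and Ephb2 0.86 and that of Thy1 and Ephb2 0.80, over 9 libraries that share their depth, scaling and courses. Cdh2 had r between -0.37 and 0.50 with the other members. These correlations are descriptions with no test.

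Cells were then split by whether they held a Gli1 UMI, in the 6 libraries with SAG. Mean Rasa3 UMIs were higher in Gli1-positive cells in 6 of 6 libraries, by a median ratio of 1.44, and lowest with Dox at 1.06 (19 h) and 1.12 (30 h). Without Dox the ratio was 1.24 at 19 h and 2.24 at 30 h in Experiment 2, and 1.64 at 17 h and 2.03 at 30 h in Experiment 1. Ephb2 was also higher in 6 of 6 libraries (median ratio 1.19), Cdh11 and Cd44 in 5 of 6 (1.54 and 1.16), Thy1 in 4 of 6 (1.05) and Cdh2 in 2 of 6 (0.95). The Experiment 1 libraries held only 46 and 25 Gli1-positive cells, in which Ephb2 averaged 0.0217 and 0.0800 UMIs per cell. The lowest Ephb2 ratio was 1.01, at 30 h with Dox.

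A split by mitosis genes, at least 3 UMIs of the list against none, set the members apart in another way. Cd44 was higher in cells with mitosis UMIs in 8 of 9 libraries, with a median ratio of 1.63, and Ephb2 in 8 of 9 with 1.89. In the libraries with Dox and SAG, where both are most abundant, the ratio was 0.86 at 19 h and 1.13 at 30 h for Cd44, and 1.23 and 1.18 for Ephb2. Elsewhere the Ephb2 ratios rest on few UMIs. Its median is the 30 h library of Experiment 1, with means of 0.0504 UMIs in 119 cells and 0.0267 UMIs in 225 cells. At 0 h with Dox its mean was 0 in the 72 cells with mitosis UMIs. Cdh11 was higher in 2 of 9, with a median of 0.50. With Dox, where Cdh11 counts are largest, its ratio was 0.27, 0.47 and 0.50 at 0, 19 and 30 h. Thy1 (0.96), Rasa3 (0.97) and Cdh2 (1.06) had median ratios near 1.

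**Figure D5:**
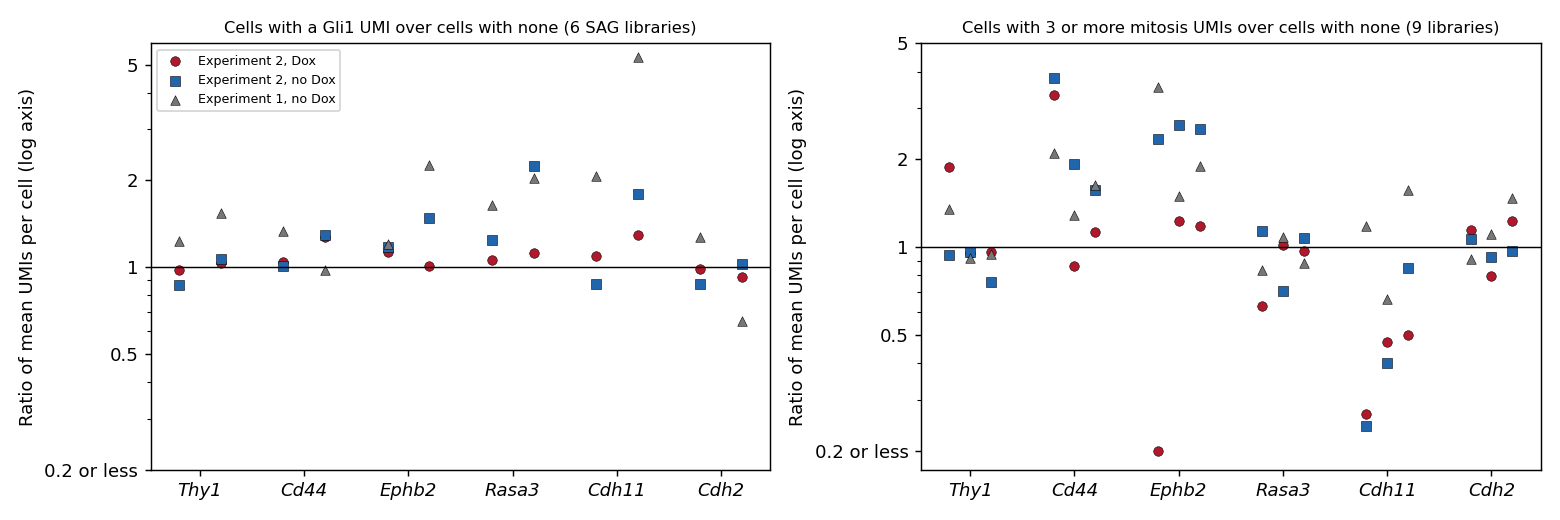
Ratio of mean UMIs per thinned cell, on a log axis, between cells with and without a Gli1 UMI (left, 6 libraries with SAG) and between cells with at least 3 and with 0 mitosis UMIs (right, 9 libraries). Each point is 1 library, red for Experiment 2 with Dox, blue for Experiment 2 without Dox and grey for Experiment 1, and a ratio of 0.2 or less is drawn at 0.2. Rasa3 lies above 1 in all 6 libraries on the left, and Cdh11 lies below 1 in 7 of 9 on the right.

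The genes whose log2 CPM followed each member most closely over the 9 libraries, among genes averaging at least 10 CPM, were found by Pearson's r. For Thy1 they included Fam110a (0.96) and Ptch1 (0.95), which encodes the Hedgehog receptor and is itself a Hedgehog target. For Cd44 they were Pear1 (0.97), Col16a1 (0.96) and Mical2 (0.96). For Ephb2 they were Srrt (0.99), Wwox (0.98) and Slco3a1 (0.98). Cdh11 was followed by Dab2ip, Peg3 and Ttc28 (0.98 each), the first also in the RAS list above. Cdh2 was followed by Zfp260 (0.98), Gm47223 (0.98) and Rnd3 (0.98), and Rasa3 by Rgl1 (0.99), Bnc2 (0.98) and Nrp2 (0.97). Across cells the leading genes were others. They were H2afz, Tnfrsf12a and Hmga2 for Cd44 (median r of 0.157, 0.155 and 0.155), Cyp51, Tpm1 and Scd2 for Thy1 (0.118, 0.110 and 0.102), and the collagen gene Col4a2, Pdgfra and Mmp2 for Rasa3 (0.130, 0.113 and 0.109). Ifi27l2a, Cavin2 and P4ha1 led for Cdh11 (0.116, 0.106 and 0.0930), and Cald1, Malat1 and Myh9 for Cdh2 (0.0915, 0.0856 and 0.0847). For Ephb2 they were Ly6a, Sos1 and Clspn (0.0627, 0.0576 and 0.0560).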

How the data were processed

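The authors deposited UMI counts for each gene and cell barcode, made with Cell Ranger against mm10, per the submitters' processing notes. Per the file headers, the software version was 3.1.0 in Experiment 1 (31054 features) and 6.0.1 in Experiment 2 (32286). Whether the counting used the strand, and what filter chose the barcodes, is not given in the sources used here.

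Features were joined by gene ID (30407 shared). Of 50106 barcodes, 18733 passed a minimum of 5000 UMIs and a mitochondrial maximum of 10%, and their counts were summed per library. Genes were tested with edgeR 4.0.16 (R 4.3.3, filterByExpr, TMM, quasi-likelihood F test, Benjamini-Hochberg adjusted p under 0.05). For the SAG comparisons, and for how they differ with Dox, the model over all 9 libraries had terms for condition and experiment. For Dox itself it held SAG time and Dox over the 6 Experiment 2 libraries. Both leave 2 residual degrees of freedom, and conditions with 1 library are assumed to vary like the others. Standard errors, given after ±, are log2 changes over the root of their F values. Libraries are paired by the experiment number in the labels, which do not say that cultures were separate, so the p-values speak of the spread between these particular libraries, which may be technical. DESeq2 1.42.0, other scalings, filters and left-out libraries were the alternatives.

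Single libraries were compared on log2 CPM (prior count 2). For values per cell, a random draw of 10000 UMIs was taken from each cell that had as many (Python 3.11.15, numpy 2.4.6, scipy 1.17.1). Intervals are 95% Poisson for levels and Clopper-Pearson for shares. The edgeR script was tested on simulated data. Doublets were not removed.

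The members and the lists were chosen with earlier results of these data known. The text names all 6 members, Gli1 and Gli2, of each list up to 4 called genes of smallest p per comparison, and per member the 3 genes most alike over libraries (mean of at least 10 CPM) and across cells (mean of at least 0.05 UMIs). Marker genes named for other cell types stand apart from that rule, as do Ly6e, Alcam, Cd63, Sipa1l2, Rap1gap, Rap1gap2, Cdh19 and Cdh24. The added feature GFP_g1 is not described here, and 1 gene that the rule names is not reported here.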

Additional observations from a re-analysis of the deposited data

Results flagged for a closer look

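The effect of Dox on Thy1 and on Cd44 had opposite signs before and after SAG. For Thy1 the Dox difference at 0 h was 1.56 lower than the mean of those at 19 and 30 h, a difference of -1.56 in log2 CPM. For Cd44 the same difference was -1.80, and its sign at 0 h depends on the scaling. The SAG response without Dox also had opposite signs in the experiments for 3 values. For Cd44 at 30 h, Experiment 2 less Experiment 1 came to 1.33 in log2 CPM. For Cdh2 at 17 to 19 h it came to -0.58, from -0.28 in Experiment 2 and 0.30 in Experiment 1. For Ephb2 at 17 to 19 h it came to 1.04, from 0.71 in Experiment 2 and -0.33 in Experiment 1, where the lower level rests on 42 UMIs. Each compares single libraries, and none of these differences was tested.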

How the results depend on the processing

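The number of genes called depended strongly on the setting. At 30 h of SAG without Dox, 64 genes became 30 with DESeq2 size factors, 210 with no filter on low counts, 12 with DESeq2, 261 with no mitochondrial limit, 0 without the experiment as a replicate block and 1 to 1276 with 1 library left out. At 17 to 19 h, 16 became 9, 43, 7, 54 and 0 under the same settings and 8 to 243 with 1 library left out. The count for a SAG response that differs with Dox, 0 at both times, became 10 (no filter), 18 (no mitochondrial limit) and 0 to 163 (1 library left out) at 30 h. At 17 to 19 h it became 1 (no scaling factor), 12 (no filter), 10 (no mitochondrial limit), 1 (at least 10000 UMIs per cell) and 0 to 169 (1 library left out). The Dox count of 5164 became 194 without SAG time as a replicate block, 981 in the fit of all 9 libraries and 2966 to 4313 with 1 library left out.

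Of the members' recomputed values, 411 stayed the same, 10 passed the threshold, 40 moved and 13 turned sign. In the SAG comparisons without Dox, staying meant the same direction and the same side of the threshold. The values that passed it were of Thy1, Ephb2, Cdh11, Rasa3 and Cd44, and they are not counted as calls. Experiment 2 libraries without Dox had entered the choice of these genes, and calls over all genes also varied with the setting. With no mitochondrial limit, for example, 261 of 15123 genes were called at 30 h, against 64 of 14354. In the comparisons that involve Dox no threshold was used. There, staying meant the same direction and a value within the standard error of the main value, and moving meant one beyond it. Cd44 ranged from -0.27 to 1.08 at 30 h with 1 library left out, and from -0.17 to 0.58 at 17 to 19 h, where dropping the Experiment 2 library at 0 h gave -0.05. Ephb2 at 17 to 19 h ranged from -0.38 to 0.75, with -0.05 on dropping the Experiment 2 library at 19 h. Cdh2 at 17 to 19 h, 0.003 in the fit, was -0.0071 with DESeq2 size factors, -0.0065 with DESeq2, -0.064 without the replicate block and -0.23 to 0.26 with 1 library left out, with -0.19 on dropping the 17 h library. The Dox excess of Cdh2's SAG response was 0.075 at 30 h and 0.048 at 17 to 19 h with no scaling factor, and -0.35 to 0.14 at 30 h with 1 library left out. Averaged over the times, the Dox difference ranged over all settings from 2.29 to 2.91 for Cdh11, 1.88 to 2.31 for Rasa3, 1.34 to 1.95 for Ephb2, 0.76 to 1.65 for Cd44, 0.07 to 0.81 for Thy1 and 0.10 to 0.52 for Cdh2. The setting with no scaling factor was chosen after seeing the data. The causes were not tested. Conditions with Dox have 1 library each, and Cdh11 and Ephb2 rest on 42 to 480 UMIs in each library without Dox.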

Other observations

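Cells with under 1% mitochondrial UMIs held fewer UMIs of all 6 genes than cells with 1% to 10%, by the median over 5 libraries. The median ratio of mean UMIs per thinned cell was 0.61 for Cdh11, 0.77 for Ephb2, 0.84 for Thy1, 0.87 for Rasa3, 0.89 for Cdh2 and 0.90 for Cd44. The ratio lay above 1 in 0 of 5 libraries for Cdh11, Ephb2 and Thy1 and in 1 of 5 for the other 3 genes. Cells under 1% numbered 15, 351 and 258 with Dox at 0, 19 and 30 h, and 71 and 399 without Dox at 19 and 30 h of Experiment 2. In the 399 cells the ratio was 1.01 for Cd44, 0.997 for Cdh11, 0.994 for Rasa3, 0.89 for Cdh2, 0.84 for Thy1 and 0.66 for Ephb2. With all cells under 1% left out the averaged Dox difference was 2.53 for Cdh11, 1.92 for Rasa3, 1.58 for Ephb2, 1.11 for Cd44, 0.34 for Thy1 and 0.13 for Cdh2.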
